A study of Bos indicus x Bos taurus with 17 samples.

Results

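Fetal liver was compared with fetal skeletal muscle in 4 bovine fetuses, numbered ART-Normal 1 to 4. The comparison used 8 of the 17 samples of the series, the liver and the muscle of each of these fetuses, and was made within fetus over all genes. Its libraries follow from the labels, as those of every ART-Normal fetus with gene counts for both tissues.

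The fetuses were Bos indicus x Bos taurus F1 hybrids at about day 105 of gestation, listed as healthy. ART-Normal fetuses were produced in vitro by assisted reproductive technology (ART) and were similar in weight to controls, whereas Control-AI fetuses were conceived by artificial insemination. Control-AI 2 and 4, with 2 libraries each, served only as a check of direction, and no library of another tissue was used. ART-Normal 4 appears in the labels but not among the fetuses that the study's methods list. The RNA came from whole pieces of tissue, so each library holds every cell type of the organ, and fewer cells of a type and less RNA per cell cannot be told apart.

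In mid gestation the liver has several roles. Hepatocytes secrete the plasma proteins of the fetus and take up amino acids, ammonia and sugars, and the same organ is a main site of blood formation, where erythroid precursors mature around macrophages. Skeletal muscle at this stage is forming fibres, which carry developmental forms of myosin and of the acetylcholine receptor, within a dense matrix of connective tissue laid down by fibroblasts. Many enzymes of energy metabolism exist as separate genes for a liver form and a muscle form.

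Total counts ranged from 22502673 to 43339598 in the 4 liver libraries and from 17061616 to 23422404 in the 4 muscle libraries. Values are counts scaled to library size (CPM) after TMM normalization, which scales libraries so that most genes keep the same level. Of 21048 listed genes, 12676 reached 5 CPM in each of the 4 libraries of a tissue and were tested, with 9813 of them passing in both tissues, 1273 in liver alone and 1590 in muscle alone. Log2 fold changes (LFC) are liver over muscle, so a positive value is higher in liver, and carry a standard error (SE). Adjusted p-values are from the quasi-likelihood test of edgeR with the fetus as a block, and a gene was called at 0.05 or lower. These p-values measure the spread between 4 fetuses. The control liver library of Control-AI 2 stood apart from the others, with a TMM factor of 0.748 against 0.968 to 1.04 in the other liver libraries and ALB at 74936 CPM against 7047 to 12932, so the 2 control fetuses are given separately. The muscle library of the same fetus stood apart as well, with ALB at 82.27 CPM against 1.25 to 10.03 in the other muscles and EEF1A1, a translation factor, at 755 CPM against 5080 to 6006. Unless a control is named, the values that follow are those of the 8 ART-Normal libraries.

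Every library carried the leading genes of its labelled tissue, with ALB at 7047 CPM or more in each liver and MYH3 at 5618 CPM or more in each muscle. Tissue separated the libraries far more than fetus did. The leading principal component, with 97.2% of the variance, placed the liver libraries between -138.4 and -136.3 and the muscle libraries between 136.7 and 139.1, and the next component took up 1%. Across tested genes, log2 CPM correlated at 0.979 to 0.991 between libraries of the same tissue and at 0.268 to 0.295 between tissues, a description in which genes are not independent replicates. Of the 12676 tested genes, 10430 (82.3%) were called, 5290 (41.7%) higher in liver and 5140 (40.5%) higher in muscle. In 9512 genes (75.0%) the 4 liver values and the 4 muscle values did not overlap.

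Because most genes differed, a second test asked for more than a 2-fold difference. It was passed by 5233 genes (41.3%), of which 2544 (20.1%) were higher in liver and 2689 (21.2%) in muscle. Small differences were the most frequent: 2361 called genes higher in liver and 2076 higher in muscle had an LFC of less than 1 in size. An LFC of 10 or more in size was fitted for 213 genes in liver and 139 in muscle. Genes at 5 CPM or more in one tissue and under 1 CPM in every library of the other numbered 475 for liver and 415 for muscle, and 38 and 61 of these had no count at all in the other tissue.

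The direction was mostly the same in the fetuses that did not enter the fit. Of the 10430 called genes, 97.11% had the same sign of liver over muscle in Control-AI 2, 98.02% in Control-AI 4 and 95.68% in both. Of the 5233 genes past the 2-fold test, 99.56% had the same sign in both controls and 0 had the opposite sign in both. All called genes are counted here, near and far from a fold of 1.

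**Figure D1:**
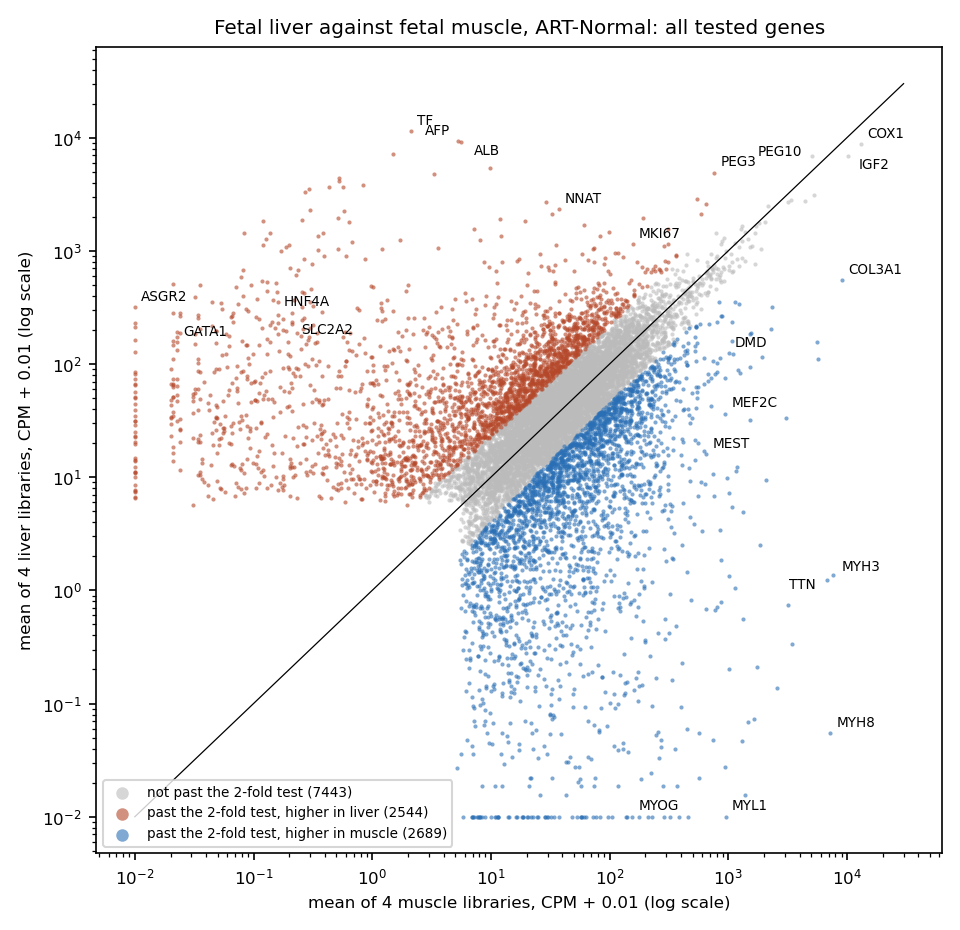
Mean CPM of the 4 liver libraries (vertical) against the mean of the 4 muscle libraries (horizontal) for the 12676 tested genes, with 0.01 added and both axes on a log scale. The line marks equal levels. Red points are the 2544 genes and blue points the 2689 genes past the 2-fold test, and points on the lowest value of an axis had no count in that tissue.

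The genes that took the most reads in liver were those of secreted plasma proteins. TF, which encodes the iron carrier transferrin (gene 280705, chromosome 1, 135579069 to 135618070, minus strand, ARS-UCD1.2), stood at 12591, 7096, 13893 and 12117 CPM in the livers of ART-Normal 1 to 4 and at 0.484, 2.31, 3.42 and 2.18 CPM in their muscles. Every liver value lay above every muscle value, with a fold of 5245 between the summed levels (LFC 12.48, SE 0.50, adjusted p = 3.214e-08). ALB, the gene of albumin (280717, chromosome 6, 88484961 to 88503330, plus strand), stood at 10161, 7047, 10902 and 8471 CPM in liver and 1.25, 6.27, 10.03 and 4.81 CPM in muscle.

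AFP, which encodes the fetal counterpart of albumin, alpha-fetoprotein, lies next to ALB on chromosome 6 (88511182 to 88532729). It had 10563, 5816, 11702 and 9043 CPM in liver and 0.604, 4.46, 6.21 and 9.72 CPM in muscle, and the 2 tissues did not overlap. In each of these 3 genes the lowest liver value was that of ART-Normal 2 and the lowest muscle value that of ART-Normal 1. The others of the 10 genes with the most liver counts were COX1, FGB, IGF2, PEG10, AHSG, PEG3 and SERPINA1.

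In muscle the 10 genes with the most counts were COX1, IGF2, COL3A1, MYH3, MYH8, TTN, COL1A2, COL1A1, EEF1A1 and PEG10. MYH3, the embryonic myosin heavy chain (281338, chromosome 19, 29601526 to 29622481, minus strand), had 5618, 8316, 8111 and 8375 CPM in muscle and 0.668, 1.60, 1.74 and 1.43 CPM in liver. MYH8, the perinatal chain of the same gene cluster (29403330 to 29433354), had 4398, 8012, 7885 and 8591 CPM in muscle and between 0 and 0.139 CPM in liver. The muscle of ART-Normal 1 was the lowest of the 4 for both chains and overlapped no liver library. COX1, IGF2 and PEG10 were among the 10 in both tissues.

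Neither tissue was dominated by a handful of genes. The 10 leading genes of each library took 5.61 to 8.18% of its counts in liver and 7.41 to 8.05% in muscle, and between 900 and 1101 genes made up 50% of the counts in liver against 998 to 1094 in muscle. The 20 listed plasma carrier and fetal proteins together took 5.35 to 7.60% of the counts of a liver library and 0.00406 to 0.00941% of those of a muscle library. The 9 myosin heavy chains took 1.26 to 1.98% in muscle and 0.000262 to 0.00089% in liver.

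**Figure D2:**
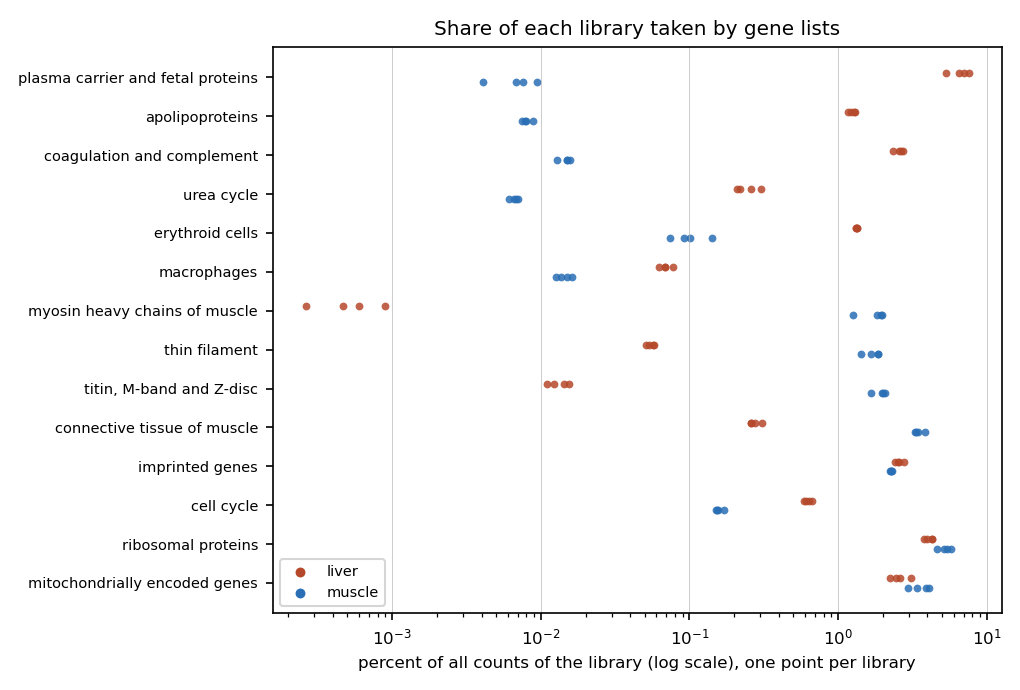
Percent of all counts of a library (horizontal, log scale) taken by 14 gene lists, with 1 point for each of the 4 liver (red) and 4 muscle (blue) libraries. Plasma proteins reached 5.35 to 7.60% in liver and myosin heavy chains 1.26 to 1.98% in muscle, while imprinted genes took 2.43 to 2.80% in liver and 2.23 to 2.31% in muscle.

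Among genes with at least 100 CPM in the higher tissue, the largest fitted LFCs in favour of liver were in hepatocyte surface and transport genes. ASGR2, a subunit of the receptor by which hepatocytes take up desialylated glycoproteins (531519, chromosome 19, 26856752 to 26866909, minus strand), had 267 to 348 CPM in liver and no count in muscle, which makes it at least 9077-fold higher against a floor of 3 counts over the 4 muscle libraries. On the same floor SLCO1B3, an uptake transporter of organic anions, was at least 6700-fold higher and ABCB11, the bile salt export pump, at least 4649-fold. HPX, which encodes the heme carrier hemopexin, had 1359 to 1542 CPM in liver and 0.0403 to 0.113 CPM in muscle, 20265-fold. FABP1 and SERPINA3-7 each had 1 count in all 4 muscle libraries and AFM, of the albumin family, had 2.

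In the other direction the largest fitted LFCs were in contractile and synaptic genes. For a gene with no count the fitted LFC is larger in size than its bound, so the order by fold can differ. CKM, outside this ranking with 1 count in liver, had a fold of 66334, above the bounds of TNNT1, SLN and MYH2. MYL1, an alkali myosin light chain of fast fibres (317657, chromosome 2, 98099881 to 98126181, minus strand), had 842.9, 1086, 832 and 1048 CPM in muscle and no count in liver, at least 36781-fold higher. By the same reckoning TNNT1, the slow troponin T, was at least 12594-fold higher, SLN, the sarcoplasmic reticulum peptide sarcolipin, at least 11210-fold, and MYH2, a fast myosin heavy chain, at least 8885-fold. ARHGAP36, a GTPase activating protein gene on the X chromosome (15095772 to 15112743), had 373.2, 530.7, 404.4 and 527.1 CPM in muscle and no count in liver, at least 17645-fold higher. MYL2, the slow regulatory light chain, had 1185 to 1594 CPM in muscle against 1 count in liver, a ratio with an exact counting interval of 29149 to 6414842. MYH8 and CHRNG were also among these 8 genes.

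Genes were then read in 33 lists of known function or cell type. Each list is given by the members called, beside 41.7% of all tested genes called higher in liver and 40.5% higher in muscle, and by its median LFC beside a median of 0.03 over all tested genes. The filter all but fixed the direction of genes passing in 1 tissue alone. Of 1273 in liver alone 1244 were called higher in liver and 0 in muscle. Of 1590 in muscle alone 1547 were called higher in muscle and 0 in liver. Members passing in both tissues numbered 3 of 20 plasma proteins, 4 of 19 hepatocyte factors, 0 of 9 myosin heavy chains and 3 of 14 myogenic factors. Such members also numbered 3 of 13 apolipoproteins, 3 of 7 urea cycle genes and 2 of 14 bile acid and xenobiotic genes. In all 20 plasma carrier and fetal proteins the level was higher in liver, with a median LFC of 11.45. In the apolipoproteins, which package lipid, 11 of 13 rose in liver, among them APOB (3225 to 3952 CPM in liver, 0 to 1.16 in muscle), APOE (2184 to 3185 against 24.0 to 32.1) and APOA2 (1387 to 3671 against 0.202 to 0.976). APOD, an apolipoprotein known from many tissues outside the liver, went the other way, with 0 to 0.183 CPM in liver and 6.29 to 7.79 CPM in muscle (LFC -5.91, SE 0.45, adjusted p = 2.217e-06).

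All 27 tested of 30 coagulation and complement genes were higher in liver, with a median LFC of 10.09. Of the 27, 6 passed the filter in both tissues, and the others entered by their liver level. The 3 fibrinogen chains had the highest CPM of this list, a scale that is not per length. FGB had 8059, 4972, 8628 and 6860 CPM in liver and 0.886 to 2.09 CPM in muscle, FGA 3196 to 3960 against 0.0403 to 0.710, and FGG 3103 to 3600 against 0 to 0.666. No fetus overlapped between tissues for any of the 3.

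All 7 urea cycle genes were called higher in liver, by very different amounts. CPS1, which captures ammonia in the first step (510506, chromosome 2, 98273701 to 98467680, plus strand), had 1320, 1134, 1851 and 1501 CPM in liver and 0.443, 0.452, 0.0444 and 0.557 CPM in muscle (LFC 11.93, SE 0.32, adjusted p = 3.511e-09). ASS1, which joins citrulline to aspartate, had 196 to 371 CPM in liver and 8.69 to 12.4 in muscle. SLC25A15, the mitochondrial ornithine carrier, had 208 to 327 CPM in liver and 42.3 to 49.5 in muscle, an LFC of 2.54 (SE 0.09). SLC25A15 was thus measured in every muscle library, whereas CPS1 was at 0.557 CPM or less in each.

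The 17 tested of 18 genes of amino acid breakdown were likewise all higher in liver, with a median LFC of 8.74. Of the 17, 4 passed the filter in both tissues, and the others entered by their liver level. HPD, an enzyme of tyrosine breakdown, had 495 to 841 CPM in liver and at most 0.178 in muscle, and UROC1, of histidine breakdown, 315 to 484 against 4.92 to 7.45.

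Gluconeogenesis was less complete. Of its 6 genes 4 were tested, and FBP1, PCK2 and PC were called higher in liver. PCK2, the mitochondrial form of the enzyme that makes phosphoenolpyruvate, had 135.5, 159.6, 206.6 and 189.5 CPM in liver and 2.35 to 4.71 in muscle. PCK1, the cytosolic form, had 1.94 to 3.40 CPM in liver and 0.607 to 1.58 in muscle and stayed under the filter. G6PC, the final enzyme of glucose release, also failed the filter because its liver levels were uneven, at 1.38, 2.40, 36.6 and 19.6 CPM in ART-Normal 1 to 4, against at most 0.133 CPM in muscle. SLC37A4, the carrier that feeds G6PC with glucose 6-phosphate, was not called (16.4 ± 3.86 CPM in liver and 18.7 ± 2.40 in muscle, SD, n = 4).

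In bile acid and xenobiotic handling 11 of 14 tested genes were higher in liver, such as GSTA2, a glutathione transferase (190 to 215 CPM against 0.846 to 9.37). CYP27A1, BAAT and CYP7B1 were higher in muscle. CYP27A1, a mitochondrial sterol hydroxylase, had 6.31 to 11.9 CPM in liver and 24.0 to 31.0 in muscle (LFC -1.67, SE 0.14, adjusted p = 3.581e-06). CYP7A1, the rate-limiting enzyme of the main route of bile acid synthesis, had counts in only 1 of 4 liver libraries, at 0.239 CPM, and none in muscle.

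The transcription factors that define hepatocytes were mostly found in liver. Of 20 factors 19 were tested and 18 called higher in liver, with a median LFC of 7.27. HNF4A (509200, chromosome 13, 72825806 to 72855373, plus strand), a nuclear receptor at the centre of the hepatocyte network, had 247.3, 273.6, 273.9 and 298.6 CPM in liver and 0, 0.0565, 0.0887 and 0.456 in muscle (LFC 10.86, SE 0.30, adjusted p = 3.821e-09). FOXA1 had no count in muscle and was at least 201.5-fold higher, while FOXA3 and GATA4 had 1 count each and FOXA2 had 2 over the 4 muscle libraries. ONECUT2, NR1H4, NR1I2 and NR1I3 stayed at or below 1.09 CPM in muscle.

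A second set of factors was shared between the tissues at unequal levels. PROX1, which also acts in lymphatic vessels and slow muscle, had 128 to 149 CPM in liver and 47.3 to 60.1 in muscle, an LFC of 1.34 (SE 0.08). GATA6, HHEX, NR5A2, CEBPA and CEBPB had LFCs between 2.94 and 3.82, with muscle levels from 1.36 CPM for CEBPA to 10.3 for NR5A2. TBX3, an early hepatoblast factor with roles in limb development, was the exception and was not called, at 26.2 ± 3.28 CPM in liver and 29.3 ± 2.92 in muscle (SD, n = 4).

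**Figure D3:**
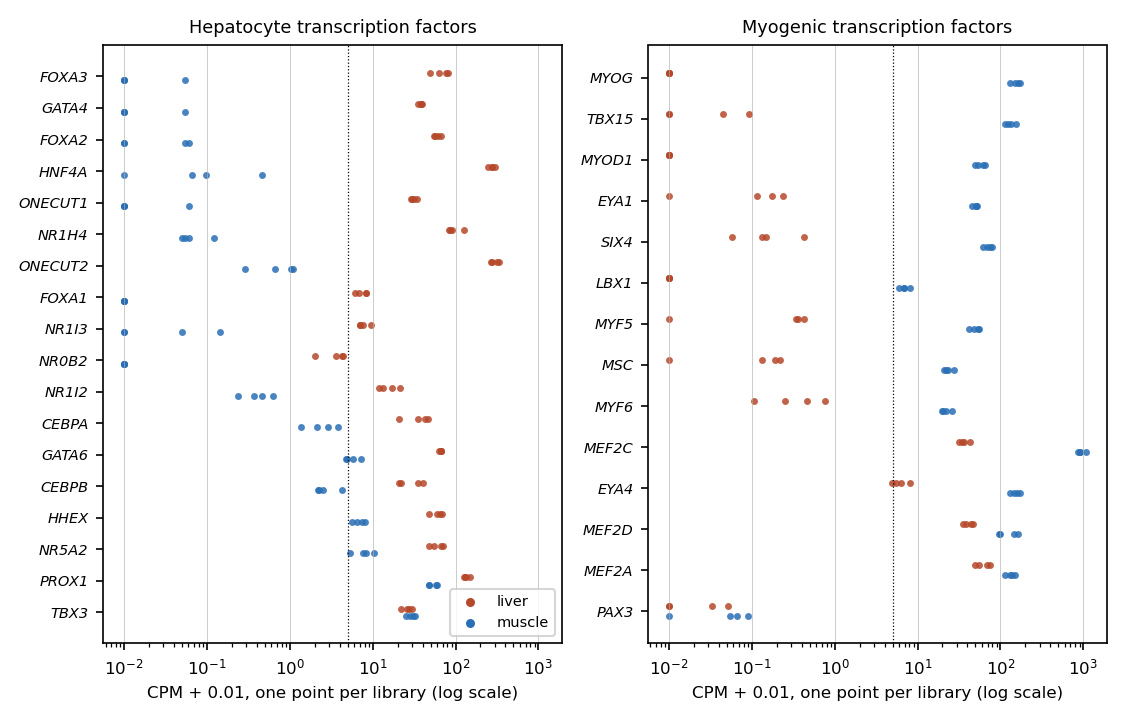
CPM plus 0.01 (horizontal, log scale) of hepatocyte (left) and myogenic (right) transcription factors, with 1 point per liver (red) and muscle (blue) library; the dotted line is the filter of 5 CPM and points at the left edge had no count. HNF4A lay at 247.3 to 298.6 CPM in liver and at most 0.456 in muscle, MYOG at 130.6 to 174.3 CPM in muscle with no count in liver, and the points of TBX3 overlap.

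Genes of blood formation were also higher in liver. Of 22 erythroid genes 20 were tested and 19 called higher in liver, with a median LFC of 7.67. Of the 20, 7 passed the filter in both tissues, and the others passed in a single tissue, which all but fixed their direction. SLC4A1, the anion exchanger of the red cell membrane (286817, chromosome 19, 44066247 to 44082437, minus strand), had 1707, 1735, 1806 and 1908 CPM in liver and 0.443, 0.339, 1.33 and 0.405 in muscle (LFC 11.45, SE 0.30, adjusted p = 2.87e-09). GATA1, the master factor of the lineage, had 145 to 175 CPM in liver and 1 count in all muscle libraries, and KLF1, which drives the adult globin programme, had 252 to 310 CPM against 0.0506 to 0.577. GATA1 and KLF1 were picked as examples with their values in view.

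Globin transcripts differed less than SLC4A1, GATA1 and KLF1, and by unequal amounts. HBB, beta globin, had 30.2 to 150.6 CPM in liver and 0.444 to 1.52 in muscle. The fold between its summed levels was 88.41, and the tissues did not overlap. The other globins given here differed by much less. HBG, a fetal globin, had 1817, 1527, 1757 and 1144 CPM in liver and 200.5, 318.4, 171.6 and 554 CPM in muscle, an LFC of 2.48 (SE 0.36, adjusted p = 0.000175). Its muscle level was highest and its liver level lowest in ART-Normal 4, without overlap. The alpha globin entries HBA and HBA1 are near-identical copies whose reads the counting could have split, and are uncertain. HBA had 51.3 to 110 CPM in liver and 15.1 to 57.3 in muscle, and HBA1 had 4.34 to 9.51 and 8.06 to 32.3, called in the opposite direction (LFC -1.09, SE 0.33, adjusted p = 0.0129), with overlap between tissues in both. The call of HBA (LFC 1.55, SE 0.48) was lost without ART-Normal 2 or 3 (adjusted p = 0.113 and 0.156), with no filter (0.0605) and with at least 10 counts in every library (0.0628). HBA1 had the opposite sign in Control-AI 2. TFRC, the transferrin receptor, through which erythroid cells take up iron, had 1457 to 2015 CPM in liver and 54.8 to 70.5 in muscle.

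Of 17 genes of blood cell precursors and platelets 14 were tested, 13 called higher in liver and 1 in muscle. Only 4 of the 14 passed the filter in both tissues. PF4, a platelet chemokine, had 317 to 405 CPM in liver and 0.604 to 2.44 in muscle, and ITGB3, the platelet fibrinogen receptor chain, 246 to 267 against 25.3 to 34.3. CD34, which marks both blood precursors and vessel walls, had 169 to 204 CPM in liver and 89.5 to 112 in muscle, an LFC of 0.85 (SE 0.08). KIT, the receptor of stem cell factor, was the gene higher in muscle, at 40.8 to 49.6 CPM against 26.6 to 30.5.

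All 13 tested macrophage genes were higher in liver, with a median LFC of 2.64 and a range from 0.43 to 11.33. The complement genes C1QB and C1QC, which macrophages of most tissues express, had LFCs of 3.16 and 3.11. The scavenger receptor MARCO had 59.6 to 75.6 CPM in liver and 0.0403 to 0.266 in muscle, and CD5L, a secreted product of liver macrophages, had 38.4 to 47.7 CPM against 1 count in all 4 muscle libraries. MRC1, the mannose receptor, differed less, with 87.1 to 112 CPM in liver and 18.2 to 36.5 in muscle. MARCO and CD5L were named after their values were seen.

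Endothelial genes went in both directions. STAB2, OIT3, LYVE1 and VWF were higher in liver, and 8 of the 13 tested genes were higher in muscle. STAB2, a hyaluronan scavenger receptor of sinusoids, had 227 to 291 CPM in liver and 0.810 to 2.13 in muscle, and OIT3 74.5 to 98.2 against 0.960 to 1.64. PECAM1 and CDH5, named with their values in view, went the other way, with 38.03 to 44.6 against 170 to 190 CPM and 51.3 to 66.4 against 161 to 189 CPM. KDR, the receptor of vascular endothelial growth factor, had 103 to 126 CPM in liver against 234 to 252 in muscle. Of the 16 genes listed, CD4, CLEC4G and FCN3 did not pass the filter in either tissue.

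Genes of the bile duct went in both directions. PKHD1 (43.7 to 74.3 CPM in liver, 4.76 to 5.76 in muscle) and EPCAM (10.6 to 22.0 against 2.48 to 4.63) were higher in liver, while the duct factor SOX9 was higher in muscle (12.7 to 15.1 CPM against 3.57 to 4.83). SPP1, a secreted bone and matrix protein as well as a duct marker, was also higher in muscle, at 152 to 192 CPM against 11.2 to 16.3. Of 8 adipocyte genes LPL, CIDEA and CIDEC were tested and higher in liver, whereas ADIPOQ, LEP, FABP4, PLIN1 and PPARG did not pass the filter.

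Genes of the contractile apparatus were higher in muscle throughout. All 9 myosin heavy chains, all 8 myosin light chains and their kinases, all 16 tested of 18 thin filament genes and all 23 tested of 25 genes of titin, the M-band and the Z-disc were higher in muscle. Their median LFCs were -10.96, -11.69, -10.64 and -9.12, with genes at no count in liver set to their bound. Members passing the filter in both tissues numbered 0, 0, 4 and 3 in these lists. The others entered by their muscle level, which all but fixed their direction. MYH7, the slow chain, had 1085, 1586, 1378 and 1300 CPM in muscle and 0.320 to 1.11 CPM in liver. In these libraries the developmental chains MYH3 and MYH8, the slow chain MYH7 and the adult fast chain MYH2 were thus all present in each muscle.

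Thin filament genes had LFCs of -7.79 or lower apart from TPM1, TPM3 and TMOD1. NEB, the ruler protein nebulin, had 2628 to 3629 CPM in muscle and 0.480 to 1.19 in liver. ACTC1, the cardiac actin that fetal skeletal muscle also uses, had 2276, 3023, 2336 and 2754 CPM in muscle, and ACTA1, the skeletal actin, had 995.7, 1387, 1332 and 1526, both with under 0.35 CPM in every liver. TPM3, a tropomyosin with forms outside muscle, had 223 to 241 CPM in liver and 677 to 930 in muscle, an LFC of -1.76 (SE 0.11). TPM1, a second such tropomyosin, had an LFC of -1.63 (SE 0.12), and TMOD1, a filament capping protein that red cells also carry, one of -0.25 (SE 0.10, adjusted p = 0.0445), a call that was lost without ART-Normal 2 or 4 (adjusted p = 0.183 and 0.113) and with no filter (0.0519). These 3 genes were singled out with their values in view.

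TTN, the giant spring protein titin (540561, chromosome 2, 18061213 to 18336786, plus strand), had 5733, 6663, 7949 and 6646 CPM in muscle and 0.973 to 1.45 in liver (LFC -12.43, SE 0.23, adjusted p = 6.45e-10). MYBPC1, slow myosin binding protein C, had 3017 to 4054 CPM against 0.191 to 0.389, and DES, the intermediate filament desmin, 935.9 to 1572 against 4.36 to 5.46. Reads from introns fall inside the counted spans, so levels of long genes such as TTN hold them too.

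All 18 tested of 20 genes of excitation-contraction coupling were higher in muscle, and 2 of them passed the filter in both tissues. RYR1, the calcium release channel of the skeletal type, had 687.5, 865.5, 1123 and 1212 CPM in muscle and 4.44 to 16.6 in liver, and RYR3, a second channel of developing muscle, 495 to 614 against 5.31 to 8.57. CASQ2, a calcium store protein, had 704.5 to 1200 CPM in muscle against 2 counts in the 4 livers together.

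At the neuromuscular junction 11 of 12 tested genes were higher in muscle, and 4 of the 12 passed the filter in both tissues. The gamma subunit CHRNG, which the acetylcholine receptor carries before birth (281689, chromosome 2, 120180193 to 120185721, plus strand), had 373.5, 403.6, 376.8 and 373.7 CPM in muscle and no count in liver, at least 14920-fold higher. CHRNE, the subunit that replaces it in mature muscle, had 0.203 to 0.484 CPM in muscle, under the filter, and 2.24 to 3.89 CPM in liver. CHRNA1, the alpha subunit, had 330 to 412 CPM in muscle and 1 count in liver. ACHE, the esterase that ends the signal and that red cell precursors also make, was higher in liver, at 70.6 to 105 CPM against 7.33 to 11.1 (LFC 3.25, SE 0.11, adjusted p = 9.531e-09).

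The dystrophin complex, which anchors fibres to their surroundings, was higher in muscle in all 13 genes but by less, with a median LFC of -3.96. DMD, dystrophin itself, had 945.5 to 1115 CPM in muscle and 113 to 135 in liver, DYSF, a membrane repair protein, 354 to 480 against 31.0 to 47.9, and DAG1, dystroglycan, 329 to 389 against 60.7 to 76.4. In Control-AI 2 DMD ran the other way, at 753.7 CPM in liver and 628.7 in muscle, while Control-AI 4 had 125.9 and 920 CPM. UTRN, the dystrophin relative of the synapse and of many other cell types, is listed with the junction genes and had 261 to 316 CPM in muscle against 194 to 226 in liver (LFC -0.40, SE 0.10, adjusted p = 0.00454).

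All 14 tested myogenic factors were higher in muscle. MYOD1 (281938, chromosome 15, 34794120 to 34796767, minus strand), which commits cells to the lineage, had 48.9, 54.1, 64.7 and 61.4 CPM in muscle, and MYOG (281343, chromosome 16, 797555 to 800395, minus strand), which drives fusion and differentiation, had 130.6, 150.3, 163.9 and 174.3. Neither had a count in liver, so they were at least 2237-fold and 6025-fold higher. MYF5, expressed in myoblasts, had 42.1 to 55.5 CPM in muscle and MYF6, of more mature fibres, 19.7 to 26.4, with up to 0.747 CPM in liver. LBX1, MSC, SIX4, EYA1 and TBX15 stayed at or below 0.412 CPM in every liver.

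The MEF2 factors, which act with the MYOD family but also outside muscle, differed in degree. MEF2C had 873 to 1082 CPM in muscle and 31.8 to 43.1 in liver (LFC -4.70, SE 0.13), MEF2D had an LFC of -1.59 (SE 0.10) and MEF2A one of -1.11 (SE 0.11). EYA4 had 131 to 174 CPM in muscle and 4.87 to 8.17 in liver. PAX3, a factor of muscle precursors, was at most 0.0806 CPM in any library, and PAX7 was not analysed here.

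**Figure D4:**
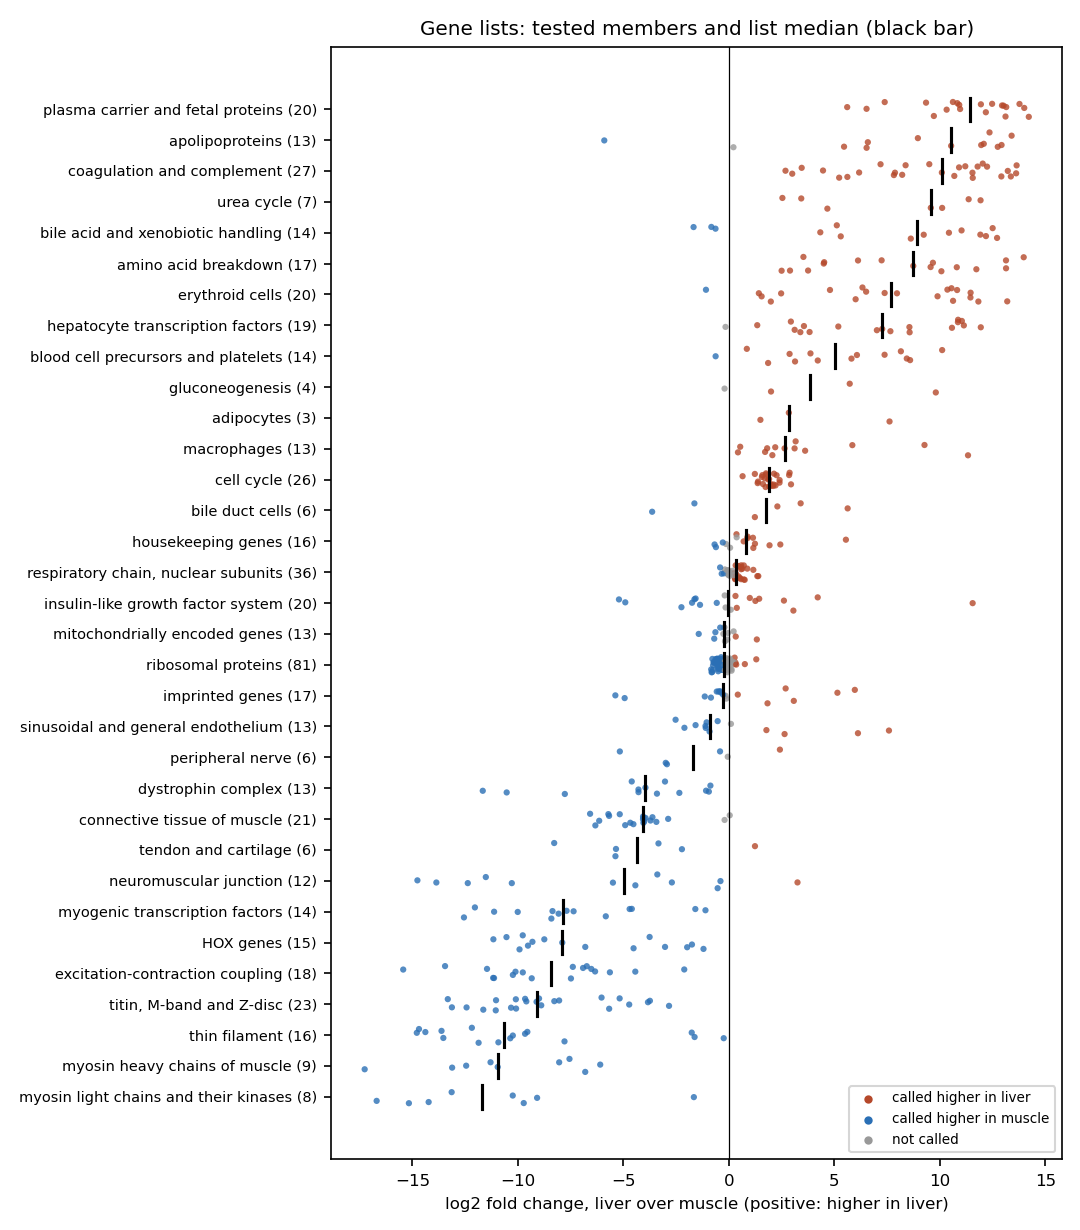
LFC, liver over muscle, of the tested members of 33 gene lists, ordered by list median (black bar), with the number tested in parentheses; genes with no count in a tissue are drawn at their bound. Red points were called higher in liver, blue in muscle and grey not called. Medians run from -11.69 for myosin light chains to 11.45 for plasma proteins, and the lists around 0 include the IGF system, ribosomal proteins and imprinted genes.

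Genes of connective tissue were mostly higher in muscle. Of 21 listed matrix and fibroblast genes 19 were higher in muscle, with a median LFC of -4.07, and none in liver. COL3A1, which forms fine collagen fibres, had 8944, 9022, 9776 and 8722 CPM in muscle and 498.4, 552.2, 533.9 and 620.6 in liver, and COL1A1 and COL1A2, the chains of the main fibrillar collagen, 4830 to 6640 and 5022 to 6590 CPM against 114 to 203 and 89.3 to 130. FN1, fibronectin, which hepatocytes secrete into plasma, and COL14A1 were not called, with LFCs of -0.20 (SE 0.13) and 0.04 (SE 0.08), though FN1 was called higher in muscle by library size alone (adjusted p = 0.0465).

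Genes of tendon and nerve gave fewer tested members and both directions. Of 11 tendon and cartilage genes 6 were tested, with TNXB (399 to 570 CPM in muscle, 0.800 to 1.86 in liver), COL11A1 (76.2 to 176 against 1.67 to 4.52) and FMOD (40.2 to 74.7 against 5.01 to 7.16) higher in muscle and the cartilage factor SOX5 higher in liver. Of 10 nerve genes 6 were tested, with PMP22, a myelin protein, at 90.5 to 125 CPM in muscle and 1.53 to 3.75 in liver. ERBB3, a neuregulin receptor, overlapped between tissues (165 to 261 CPM in muscle, 144 to 191 in liver, LFC -0.42, SE 0.14, adjusted p = 0.0232) and lost its call without ART-Normal 2, 3 or 4 (adjusted p = 0.0965, 0.0944 and 0.0633). GFRA3, a receptor of the neurotrophic factor artemin, was higher in liver, at 19.3 to 22.1 CPM against 3.68 to 4.11.

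HOX genes, which record position along the body, were higher in muscle in all 15 members that passed the filter, with a median LFC of -7.90. Only 3 of the 15 passed in both tissues, and the others entered by their muscle level, which all but fixed their direction. A further 24 HOX genes were under the filter in both tissues. HOXA9 had 57.0 to 74.3 CPM in muscle and 3.73 to 5.90 in liver and HOXD4 35.5 to 58.7 against 0 to 0.191. HOXA10, HOXC6 and HOXC10 had no count in liver and were at least 971.1-fold, 1490-fold and 735.5-fold higher. HOXA3 and HOXA5, which overlap each other on one strand, differed least, with LFCs of -1.75 and -1.20 (SE 0.11 and 0.10). These 5 genes were chosen with their values in view.

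Of 26 enzymes and structural proteins with a liver form and a muscle form, 14 had the liver form called higher in liver and the muscle form called higher in muscle. Among these 14, each form passed the filter in both tissues for PFKL and PFKM, SLC16A1 and SLC16A3, CPT1A and CPT1B, and SLC25A5 and SLC25A4. In the rest of the 14 a form passed in a single tissue, which all but fixed its direction. A shift was computed in each fetus as the log2 ratio of liver form to muscle form in liver minus the same ratio in muscle, on CPM plus 0.5. It was above 0 in all 4 fetuses for 24 pairs. Both forms were tested in 23 pairs, and FBP2, EEF1A2 and RPL3L were under the filter. A shift above 0 does not require opposite directions, since SLC2A2 and SLC2A4 were both higher in liver. No test was made of the shift, since an exact two-sided test over 4 pairs cannot reach 0.05. The widest shifts were those of KRT8 and DES (16.24 ± 0.54, SD, n = 4), intermediate filament genes of epithelium and muscle, followed by FABP1 and FABP3 (11.86 ± 0.53), PKLR and PKM (11.49 ± 0.34), and CKB and CKM (11.36 ± 0.41).

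In glycolysis the exchange was seen for pyruvate kinase and phosphofructokinase. PKLR, liver pyruvate kinase, had 356 to 514 CPM in liver and 0.121 to 0.354 in muscle, and PKM 49.0 to 52.1 in liver and 238 to 298 in muscle. PFKL and PFKM had LFCs of 1.92 (SE 0.08) and -3.33 (SE 0.13).

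At 2 other steps the liver form was a general form. PGAM1 differed little (LFC 0.33, SE 0.08, adjusted p = 0.00338), while PGAM2 had 39.8 to 76.7 CPM in muscle and no count in liver. ENO1 was not called (280 to 340 CPM in liver, 239 to 312 in muscle), although 4 alternatives called it higher in liver, namely no filter, the likelihood ratio test, DESeq2 and all 6 fetuses (adjusted p = 0.0454, 0.0432, 0.0049 and 0.00816), and ENO3 had 7.79 to 9.96 CPM in liver and 127 to 243 in muscle.

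In glucose transport both genes of the pair were higher in liver. SLC2A2, the transporter of hepatocytes (282357, chromosome 1, 96452863 to 96485584, plus strand), had 290.4, 175.6, 290 and 186.9 CPM in liver and 0.121 to 0.311 in muscle. SLC2A4, the transporter that insulin recruits in adult muscle and fat (282359, chromosome 19, 26984018 to 26989772, plus strand), had 26.2, 18.1, 29.9 and 33.7 CPM in liver and 3.83, 6.21, 5.72 and 8.56 in muscle. All 4 liver values of SLC2A4 lay above all 4 muscle values (LFC 2.16, SE 0.20, adjusted p = 7.744e-06).

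Among glycogen genes the forms of the synthase and of the phosphorylase were called in opposite directions. GYS2, liver glycogen synthase, had 91.9 to 131 CPM in liver and 0.0506 to 0.121 in muscle, and GYS1 had 9.92 to 10.6 in liver and 48.5 to 69.7 in muscle. PYGL and PYGM, the phosphorylases that release glucose units, had LFCs of 3.20 (SE 0.08) and -7.71 (SE 0.29). Of the subunits that bring a phosphatase to glycogen, PPP1R3A was found in muscle only (163 to 238 CPM, no count in liver) and PPP1R3B was not called. The phosphorylase kinase subunits PHKA2 and PHKG2, listed as liver forms, were both higher in muscle (LFC -0.67 and -0.72), by less than their muscle partners PHKA1 and PHKG1 (LFC -1.83 and -2.40).

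In lipid and amino acid metabolism the shift ran from 2.65 ± 0.31 for CPT1A and CPT1B to 11.86 ± 0.53 for the fatty acid binding proteins (SD, n = 4). FABP1, the fatty acid binding protein of liver, had 465.4, 618.1, 428.4 and 533.4 CPM in liver and 0, 0, 0.0444 and 0 in muscle, while FABP3 had 2.61 to 4.20 in liver and 11.6 to 15.4 in muscle. CPT1A and CPT1B, which let fatty acids into mitochondria, had LFCs of 1.69 and -1.03. ACACA, the cytosolic acetyl-CoA carboxylase, was not called, and ACACB, its mitochondrial partner, had 0.209 to 1.53 CPM in liver and 57.8 to 84.8 in muscle. MAT1A, which makes S-adenosylmethionine in liver, had 476 to 744 CPM there and at most 0.355 in muscle, and MAT2A, the form of other tissues, was itself higher in liver by a small amount (LFC 0.42, SE 0.08).

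Energy transfer and calcium genes had marked muscle forms. CKM had 425.7, 559.1, 629.5 and 668.1 CPM in muscle and 1 count in liver, and CKB was higher in liver (126 to 195 CPM against 56.2 to 80.8). AMPD1 and ADSSL1, of the purine nucleotide cycle in muscle, had LFCs of -9.83 and -4.11, against 1.73 and 0.87 for AMPD2 and ADSS. The calcium pump ATP2A2, paired here as the general form, was higher in muscle (487.5 to 601 CPM against 206 to 235), as was ATP2A1 (192 to 341 against 0.0914 to 0.695), which overlaps RABEP2 on the other strand. SLC25A5 and SLC25A4, the adenine nucleotide carriers, had LFCs of 2.40 and -0.97, and SLC16A1 and SLC16A3, the lactate carriers, 0.28 and -1.05. The call of SLC16A1 was lost without ART-Normal 1, 2 or 4 (adjusted p = 0.101, 0.0797 and 0.0536), by upper quartile (0.0577) and by library size alone (0.0943).

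Among mitochondrial subunits with 2 forms, only that of cytochrome oxidase VIa followed the tissues. COX6A1 had 129 to 151 CPM in liver and 43.6 to 61.4 in muscle and COX6A2 had 1 count in liver and 46.3 to 109 CPM in muscle. COX7A2 was higher in liver (LFC 0.69, SE 0.10), and COX7A1, the muscle form, was not called, at 22.2 ± 4.57 CPM in liver and 19.2 ± 4.25 in muscle (SD, n = 4). The muscle forms EEF1A2 and RPL3L, of protein synthesis, stayed at or below 0.725 and 4.05 CPM in every muscle, and so did FBP2, at or below 0.121.

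**Figure D5:**
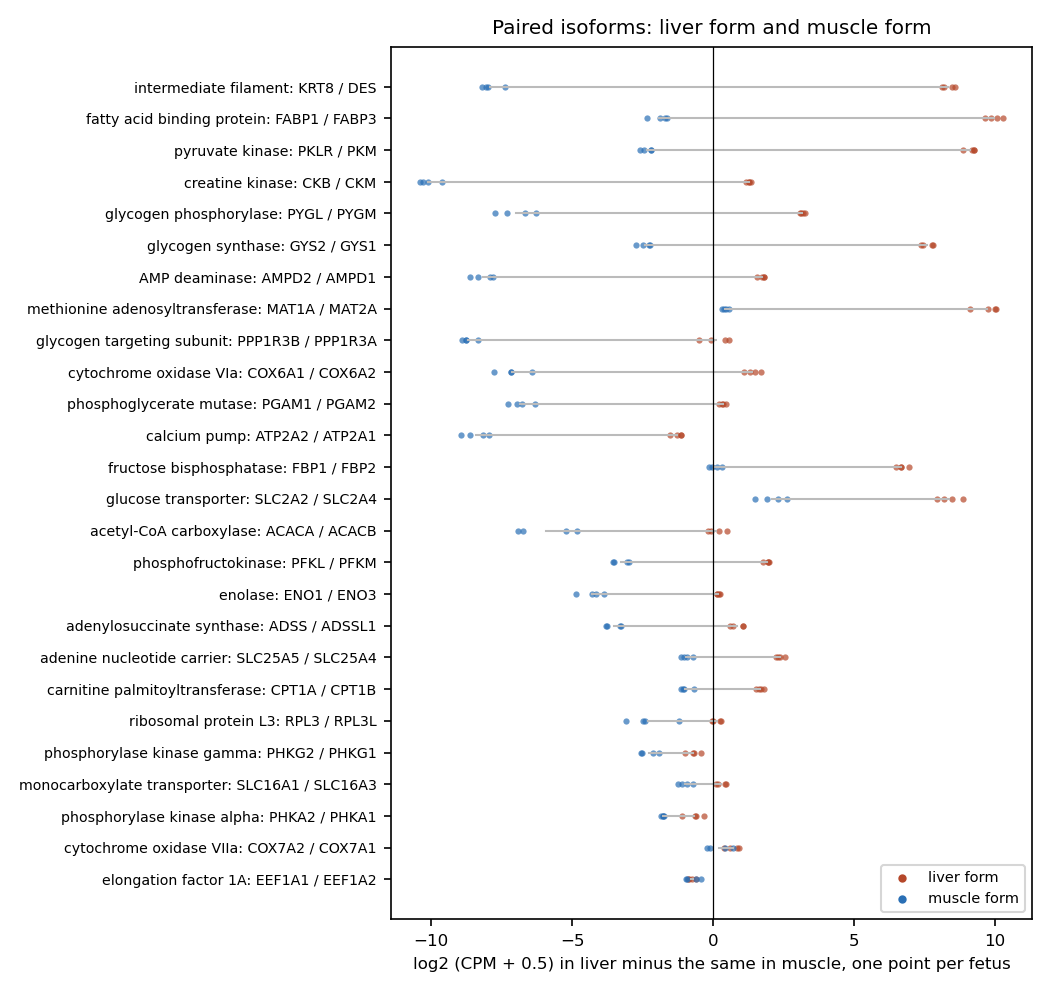
Difference of log2 (CPM + 0.5) between liver and muscle in each of the 4 fetuses (horizontal, 1 point per fetus) for the liver form (red) and muscle form (blue) of 26 pairs, joined by a grey line between their means and ordered by their shift. Red points right of 0 and blue points left of 0 show an exchange of forms. For SLC2A4 and MAT2A the blue points lie right of 0, and for ATP2A2, PHKA2, PHKG2 and EEF1A1 the red points lie left of 0.

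Of 20 genes of the insulin-like growth factor (IGF) system 9 were higher in liver and 8 in muscle, shares near those over all tested genes. IGF2, the main fetal growth factor of the family (281240, chromosome 29, 49395153 to 49422469, plus strand), had 6844, 5764, 7067 and 7812 CPM in liver and 9764, 10119, 10660 and 10198 in muscle. The values did not overlap, with an LFC of -0.58 (SE 0.17, adjusted p = 0.0104), and the call was lost without ART-Normal 2 (adjusted p = 0.0801). IGF1, which the liver secretes after birth, had 19.4 to 31.1 CPM in liver and 73.4 to 86.3 in muscle, and its receptor IGF1R 86.4 to 103 against 187 to 328.

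The binding proteins, which hold IGFs in the circulation and in tissue, had the widest range. IGFBP1, a secreted product of hepatocytes, had 479.4, 147.1, 710.7 and 391.3 CPM in liver and 0.0444 to 0.226 in muscle, while IGFBP5 had 15.6 to 18.8 in liver and 582.5, 648.6, 611.5 and 679.3 in muscle. IGFBP6 had an LFC of -4.91 (SE 0.11) and IGFBP7, which overlaps POLR2B on the other strand, one of -2.25 (SE 0.12). The clearance receptor IGF2R was not called (626 to 733 CPM in liver, 622 to 989 in muscle). IGF1, IGF1R and IGFBP1 were named with their values in view.

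Imprinted genes, expressed from 1 parental copy, included some of the most read genes of both organs. Of 24 listed 17 were tested, 6 higher in liver and 9 in muscle. PEG3, a zinc finger gene (444864, chromosome 18, 64099192 to 64122748, minus strand), had 4674, 4761, 4988 and 5219 CPM in liver and 708.3, 700, 857.1 and 789 in muscle (LFC 2.69, SE 0.13, adjusted p = 1.331e-07). NNAT, a gene first known from the developing brain whose span overlaps BLCAP on the other strand, had 1922 to 2883 CPM in liver and 30.3 to 45.7 in muscle. MEST, named with its values in view, went the other way, with 12.7 to 20.6 CPM in liver and 614.8 to 683.8 in muscle. PEG10 was close to even (6287 to 7872 CPM in liver, 4509 to 5595 in muscle, LFC 0.42, SE 0.16, adjusted p = 0.0392), and its call was lost without any 1 of the 4 fetuses (adjusted p = 0.164, 0.0795, 0.0622 and 0.104 without ART-Normal 1 to 4). It was also lost by upper quartile, library size alone and TMM over genes in both tissues (adjusted p = 0.098, 0.0518 and 0.0659).

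All 26 cell cycle genes were higher in liver, with a median LFC of 1.91 and a range of 0.65 to 2.94. MKI67, present in dividing cells, had 1154, 1125, 1070 and 1207 CPM in liver and 136.1, 128.7, 183.6 and 178.5 in muscle, CENPF, a kinetochore protein, 681 to 985 against 159 to 184, and TOP2A, which untangles DNA before division, 407 to 599 against 172 to 237. No value overlapped between tissues for any of the 3. The erythroid list moved in the same direction, and its part in this result was not tested.

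Energy genes of mitochondria differed much less. Of 36 nuclear subunits of the respiratory chain and ATP synthase 23 were higher in liver and 3 in muscle, with a median LFC of 0.33. ATP5F1A, ATP5F1B and SDHA had LFCs of 0.58, 0.47 and 1.16 (SE 0.10, 0.09 and 0.07), and NDUFB10, NDUFB5 and COX5A, the 3 genes higher in muscle, had -0.42, -0.34 and -0.24. NDUFB5 and COX5A were not called without ART-Normal 2 (adjusted p = 0.132 and 0.18) or 4 (adjusted p = 0.087 and 0.116), which leaves 1 gene higher in muscle, and COX5A not with no filter (0.0617) or all 6 fetuses (0.0529) either. COX5A had the opposite sign in Control-AI 4. Of the 13 genes encoded by mitochondrial DNA 2 were called higher in liver and 4 in muscle, and without ART-Normal 2 or 4 the latter number was 1 or 2. COX1 had 11728, 4729, 9813 and 8779 CPM in liver and 15203, 13916, 11600 and 11698 in muscle, with overlap, and its call (LFC -0.64, SE 0.25, adjusted p = 0.0397) was lost without ART-Normal 1, 2 or 4 (adjusted p = 0.0504, 0.236 and 0.0542) and with all 6 fetuses (0.0827). In Control-AI 2 COX1 was higher in liver, at 19004 CPM against 16991. COX3 was called higher in muscle (LFC -0.70, SE 0.15) and ND6, which lies opposite ND5, higher in liver (LFC 1.32, SE 0.09), with the opposite sign in Control-AI 2.

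Reference genes, like most tested genes, were not level between the tissues. Of 16 in common use 10 were called higher in liver and 3 in muscle, where 82.3% of all tested genes were called in either direction. ACTB, cytoplasmic actin, had 1305 to 1601 CPM in liver and 702.7 to 865.1 in muscle and PPIA, a prolyl isomerase, 646 to 696 against 323 to 394. GAPDH and PGK1, both of glycolysis, were higher in muscle (LFC -0.62 and -0.68, SE 0.13 and 0.09). RPLP0, of the ribosome, was not called (1016 to 1299 CPM in liver, 1014 to 1369 in muscle).

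The liver minus muscle difference of most genes varied little between the 4 fetuses. Among 9572 genes with at least 20 CPM in every library of a tissue, its SD over fetuses in log2 had a median of 0.186. The 95th percentile was 0.487 and the maximum 2.62. Within a tissue the median SD over fetuses was 0.174 in liver and 0.157 in muscle. The gene with the widest spread was MCF2L2, a guanine exchange factor gene that overlaps B3GNT5 on the other strand, which had 3.05, 2.90, 47.5 and 83.1 CPM in the 4 livers and 40.8, 32.3, 36.0 and 25.7 in the muscles. The livers of ART-Normal 1 and 2 were thus low, those of ART-Normal 3 and 4 high, and all 4 muscles lay between. LOC509034, PTPRT, AFP and HBB followed. PTPRT, a receptor phosphatase, was at 5.72 CPM in the liver of ART-Normal 2 and at most 0.429 in the others, and HBB, beta globin, at 150.6, 40.2, 126.1 and 30.2 CPM in liver.

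Transcripts of plasma proteins were present in every muscle library at a low level that varied by library. ALB, AFP, AHSG, TF and SERPINA1 were each lowest in the muscle of ART-Normal 1, where the plasma protein list summed to 38.4 CPM against 93.4 in that of ART-Normal 3. The sums in the muscles of Control-AI 2 and 4 were 462.4 and 67.4 CPM. AHSG, which encodes fetuin A, had 1.61, 9.26, 19.6 and 8.66 CPM in the muscles and 4035 to 6512 in the livers, and SERPINA1, alpha-1-antitrypsin, 0.685, 3.27, 6.43 and 2.89 against 3428 to 6201. In the other direction MYH3 reached at most 1.74 CPM in an ART-Normal liver, 7.53 CPM in that of Control-AI 2 and 0.986 in that of Control-AI 4. The origin of these reads was not tested.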

How the data were processed

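Poly(A)-selected, strand-specific libraries of liver and skeletal muscle were sequenced as 150 bp paired-end reads. For either tissue the authors deposited a table of raw read counts by gene, not normalized, with positions on ARS-UCD1.2. The submitters' processing notes name FastQC 0.11.7, HISAT2 2.1.0, Cufflinks, SAMtools, featureCounts and edgeR 3.24.3. Listed gene lengths run from start to end, introns included, so intronic reads were counted. The strand setting of the counting was not given in the sources used here, so reads of overlapping genes may be shared: this touches ATP2A1, CHRNE, IGFBP7, MCF2L2, ND6, NNAT, NR1I3, PGK1, PHKG1, PHKG2, PYGL, SLC16A3 and TMOD1 on opposite strands and AFM, COX3, CPT1B, HOXA3, HOXA5, LOC509034 and SLCO1B3 on the same strand. A further 14 count columns were not used, and 9 identifiers listed on more than 1 line were kept. The authors also deposited tables of their own comparisons, with log2 fold changes, p-values and FDR, which were not used. CPM is not scaled by gene length, since exonic lengths were not available here, so an order of genes by counts or CPM is not one of transcript number.

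The fit used edgeR 4.0.16 in R 4.3.3 (TMM, robust quasi-likelihood test, two-sided, fetus as block) over genes that reached 5 CPM in each of the 4 libraries of a tissue, with Benjamini-Hochberg adjustment over all tested genes. A 2-fold threshold was tested with glmTreat on the same fit. The filter and TMM follow the study, which tested with a likelihood ratio test. The F statistic of a gene gave the standard error of its log2 fold change. Procedures were tested on simulated data with known changes in a small set of genes. The other genes were simulated as equal between tissues and without a fetus effect. That setting differs from these data, where most genes were called, so it cannot show how the procedures perform here. The fetal identifiers in the labels pair the tissues by animal, and deviations from the tissue mean correlated between tissues of the same fetus at r of 0.467, 0.106, 0.082 and 0.59 for ART-Normal 1 to 4 and between tissues of different fetuses at -0.526 to 0.336, across 9813 genes, so that the muscles of ART-Normal 2 and 3 correlated better with the liver of another fetus than with their own. Folds against a tissue with no count use a floor of 3 counts over its 4 libraries, and exact counting intervals are given for 1 to 3 counts; both cover counting error only. Isoform shifts used CPM plus 0.5.

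Genes named are both forms of each pair, the 3 members of each list with the highest level and those called against its direction. They also include the 8 with the largest fitted LFC and the 10 most counted genes of each tissue. The 5 with the widest spread and all listed transcription factors complete the rule. Others were named outside this rule. Some of them are marked where named, and some, such as PCK1, G6PC, SLC37A4, CYP7A1, CHRNE and ACTA1, are not. Some items that this rule names are not reported here. The comparison, its members, lists and pairs were chosen with earlier results of these data known. Tables and plots were made with Python 3.11.15, pandas 2.3.3 and Matplotlib 3.10.9. Alternatives were RLE, upper quartile, library size alone, TMM over genes present in both tissues, no filter, a minimum of 10 counts per library, no block, each fetus left out, the likelihood ratio test, DESeq2 1.42.0, all 6 fetuses, and CPM plus 1.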

Additional observations from a re-analysis of the deposited data

Results flagged for a closer look

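Over 562 groups of 4 values of the named genes, 29 held a value set apart from the other 3 by its gap in relation to the range, and chance sets apart about 1 group in 20. In CPM, ART-Normal 1 was apart in muscle for MYH3 (5618, the others 8111 to 8375), MYH8 (4398, the others 7885 to 8591), C1QB (10.2) and PHKA1 (48.4), and in liver for NDUFB5 (46.5, the others 34.1 to 35.8). ART-Normal 2 was apart in muscle for CHRNG (403.6, the others 373.5 to 376.8) and in liver for IGF2R (626, the others 725.9 to 733) and GATA6 (63.0). ART-Normal 3 was apart in muscle for TNXB (570.4, the others 399.2 to 411.4) and UTRN (315.6) and in liver for GSTA2 (214.5). ART-Normal 4 was apart in muscle for PECAM1 (190.4) and in liver for COX3 (2277, the others 2888 to 2959), FMOD (7.16) and TMOD1 (85.1).

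In the log2 difference of liver minus muscle on CPM plus 0.5, ART-Normal 1 was apart for SERPINA1 (12.24, the others 9.80 to 10.17), GSTA2 (7.14, the others 4.28 to 4.69), NR1H4 (7.86), PEG10 (0.80, the others 0.26 to 0.33), ERBB3 (0.21, the others -0.70 to -0.56) and CDH5 (-1.74). ART-Normal 2 was apart for COX1 (-1.56, the others -0.41 to -0.24), LOC509034 (2.81, the others 6.87 to 7.43) and CHRNG (-9.66). ART-Normal 3 was apart for CPS1 (11.73, the others 10.22 to 10.47) and GFRA3 (2.24), and ART-Normal 4 for CEBPB (3.95, the others 2.90 to 2.96), HNF4A (8.29, the others 8.86 to 8.95) and SDHA (1.08).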

How the results depend on the processing

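The number of called genes stayed between 9859 and 12890 in either direction together, against 10430, and the share of calls higher in liver between 47.3 and 51.2%, under every alternative run. With no replicate block, that is without pairing by fetus, 10069 genes were called, 10043 of them also called with it, and among named genes SLC16A1 and TMOD1 lost their call (adjusted p = 0.0527 and 0.0545) and the uncalled MCF2L2 changed sign (0.0159). Other uncalled genes that changed sign were COL14A1 (-0.0384 by upper quartile, -0.0511 by library size, -0.0163 by TMM over genes in both tissues, -0.0810 with all 6 fetuses, -0.0395 to 0.0917 with a fetus left out), RPLP0 (-0.0219 by upper quartile, -0.0345 by library size, -0.0123 to 0.1265 with a fetus left out), RPSA (-0.0000 by upper quartile, -0.0127 by library size), ACACA (-0.0193 to 0.2052 with a fetus left out) and PPP1R3B (-0.0773 to 0.3051), and the shift of elongation factor 1A (-0.17 to 0.08) did so as well.

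A minimum of 10 counts in every library removes genes of one tissue, and left fewer calls in the list's main direction: 9 of the plasma proteins, 3 apolipoproteins and 0 in the direction of APOD, 12 coagulation and complement, 3 urea cycle, 7 amino acid breakdown, 3 bile acid, 6 hepatocyte factors, 8 erythroid, 7 blood precursor, 2 myosin heavy chain, 1 light chain, 8 thin filament, 12 titin and Z-disc, 8 coupling, 6 junction, 4 myogenic factor and 6 HOX genes. With no filter, calls were added: 5 for gluconeogenesis and 2 for the junction in liver, and 8 for tendon, 2 for adipocytes, 8 for nerve and 23 for HOX in muscle. Mitochondrially encoded genes higher in liver numbered 1 in place of 2 under RLE, upper quartile, library size, TMM over genes in both tissues, no replicate block, DESeq2 and all 6 fetuses, and 1 to 2 with a fetus left out, and those higher in muscle 1 to 5 in place of 4 with a fetus left out. Respiratory chain genes higher in muscle numbered 1 to 4 in place of 3 with a fetus left out, and erythroid genes higher in muscle 0 with all 6 fetuses.

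Adding 1 CPM in place of 0.5 narrowed the shift of forms to 10.74 (pyruvate kinase), 6.18 (phosphoglycerate mutase), 5.74 (fructose bisphosphatase), 9.08 (glycogen synthase), 7.80 (glycogen targeting), 5.59 (glucose transporter), 10.74 (fatty acid binding protein), 8.53 (methionine adenosyltransferase), 7.54 (cytochrome oxidase VIa), 10.37 (creatine kinase), 9.15 (AMP deaminase), 3.99 (adenylosuccinate synthase), 6.45 (calcium pump) and 15.26 (intermediate filament), since a form absent from a tissue is set by the added value. Depth limits genes near 0 in a tissue, whose folds rest on a few counts. Other causes of these changes were not tested.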

Other observations

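Ribosomal protein genes, which are expressed in every cell, leaned towards muscle by small amounts. Of 83 genes 81 were tested, 35 were called higher in muscle, 6 higher in liver and 40 were not called. Over all tested genes 40.5% were called higher in muscle, a share near that of the list, and 41.7% higher in liver. The median LFC was -0.24 beside 0.03 over all tested genes. Of the 41 called genes 35 had the same sign in both controls. The list took 3.81 to 4.30% of the counts of an ART-Normal liver library and 4.65 to 5.78% of those of a muscle library. RPL4 had 922 to 1292 CPM in liver and 1432 to 1664 in muscle (LFC -0.54, SE 0.14, adjusted p = 0.0054). RPS2 and RPSA were not called, with LFCs of 0.24 (SE 0.15) and 0.08 (SE 0.11). RPS27L, a paralog of a ribosomal protein gene known as a target of p53, was the 1 gene of the list past the 2-fold test and went the other way, with 69.8 to 89.7 CPM in liver and 27.5 to 34.2 in muscle (LFC 1.30, SE 0.10). Why the list leaned towards muscle was not tested.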
